A study of Mus musculus with 4 samples.

Results

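Ion channel subunit genes were selected from the probe annotation of a mouse Illumina BeadChip by symbol alone: the sodium channel genes whose symbols begin Scn and a number, the calcium channel genes Cacna, Cacnb and Cacng, and every gene whose symbol begins Kcn. The rule took 164 of 25697 probes, which belong to 108 of 16593 named genes, and it used no measured value. The set is wider than its working name of voltage-gated ion channels. It also holds inwardly rectifying, tandem-pore-domain and calcium-activated potassium channels, accessory subunits, and the TARPs among the Cacng genes, which are auxiliary subunits of AMPA-type glutamate receptors.

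Labelled total RNA from mouse cells was hybridised to 4 arrays, 1 each for APNL+AuEMF cells, APNL cells, primary neurons and fibroblasts. The series concerns direct conversion of cells into dopamine neurons with an electromagnetic field, and its labels give each sample only a cell type name. Read from background knowledge and not from the labels, APNL names transcription factors delivered to the cells, and AuEMF names gold particles exposed to an electromagnetic field. The labels do not give the origin of the neurons or fibroblasts, the time in culture or a control for gene delivery, and nothing in them names an allele or an agent beyond these words. With 1 array for each group there is no replicate, so no difference below has an error or a test, and their small number limits the precision.

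Voltage-gated sodium channels carry the upstroke of the action potential, voltage-gated calcium channels couple depolarisation to transmitter release, contraction and gene expression, and potassium channels set the resting potential and the speed of repolarisation. Pore-forming subunits decide which ion passes, and accessory subunits adjust trafficking and gating. Neurons carry many of these genes, whereas fibroblasts and muscle cells carry a smaller set. Genes of T-type calcium channels, Kv beta subunits and K2P leak channels were detected here on both primary neurons and fibroblasts.

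Levels are on a log2 scale after background correction and quantile normalization, and a probe counted as detected when its deposited detection p-value, set against negative control beads, was under 0.01. The lowest detected level was 6.58 on the APNL+AuEMF array, 6.93 on APNL, 6.36 on primary neurons and 7.13 on fibroblasts, so a dim gene can be detected on one array and not on another at nearly the same level. Detected probes made up 45.8%, 42.9%, 47.8% and 41.4% of each array in that order. Of 12 neuronal marker genes 10, 8, 10 and 5 were detected on these arrays in that order, and Snap25 and Nefl were not detected on any, the primary neuron array included. Of 14 measured skeletal muscle markers 12, 12, 4 and 12 were detected, so the fibroblast array carried muscle transcripts too. Fibroblast markers were detected for 10 of 11 genes on each of the 4 arrays, primary neurons included. In bulk RNA, fewer cells of a type and less RNA per cell cannot be told apart.

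The promoters of 5 genes that the results turn on are shown for context, 3 of genes with the highest primary neuron levels relative to fibroblasts (Kcnc1, Kcnc4, Cacng5) and 2 of genes that were lower in the neurons (Kcne4, Kcnk5). Each runs from 250 bases before to 50 bases after a RefSeq transcription start in GRCm38.p6. Capitals mark E-boxes, the CANNTG motif read by bHLH factors, searched on both strands.
Kcnc1 (GRCm38.p6, chr7:46396218-46396517, plus strand): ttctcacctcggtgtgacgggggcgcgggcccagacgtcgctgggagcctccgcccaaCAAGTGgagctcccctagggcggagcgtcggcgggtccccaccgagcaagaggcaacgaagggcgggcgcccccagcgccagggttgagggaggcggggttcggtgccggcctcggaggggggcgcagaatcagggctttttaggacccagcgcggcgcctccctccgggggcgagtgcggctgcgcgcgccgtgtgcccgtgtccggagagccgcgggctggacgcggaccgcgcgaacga
Kcnc4 (GRCm38.p6, chr3:107458849-107459148, minus strand): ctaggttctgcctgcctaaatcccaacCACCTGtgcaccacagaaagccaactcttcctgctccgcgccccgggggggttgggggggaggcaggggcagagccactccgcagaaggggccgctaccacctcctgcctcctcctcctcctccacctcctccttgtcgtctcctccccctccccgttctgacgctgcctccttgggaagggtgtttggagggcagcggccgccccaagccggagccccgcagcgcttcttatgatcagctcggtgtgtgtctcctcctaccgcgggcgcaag
Cacng5 (GRCm38.p6, chr11:107915006-107915305, minus strand): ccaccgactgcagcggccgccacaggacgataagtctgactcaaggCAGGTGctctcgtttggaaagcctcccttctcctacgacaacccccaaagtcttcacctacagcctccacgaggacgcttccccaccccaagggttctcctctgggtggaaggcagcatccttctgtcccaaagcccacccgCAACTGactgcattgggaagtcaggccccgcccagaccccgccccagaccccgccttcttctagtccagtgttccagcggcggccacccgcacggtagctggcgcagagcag
Kcne4 (GRCm38.p6, chr1:78816661-78816960, plus strand): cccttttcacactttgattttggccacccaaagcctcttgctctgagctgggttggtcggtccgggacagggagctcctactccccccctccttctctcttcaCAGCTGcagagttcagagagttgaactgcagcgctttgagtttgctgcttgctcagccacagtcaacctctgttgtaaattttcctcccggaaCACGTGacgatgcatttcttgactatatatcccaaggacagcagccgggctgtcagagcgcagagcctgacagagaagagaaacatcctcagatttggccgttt
Kcnk5 (GRCm38.p6, chr14:20181733-20182032, minus strand): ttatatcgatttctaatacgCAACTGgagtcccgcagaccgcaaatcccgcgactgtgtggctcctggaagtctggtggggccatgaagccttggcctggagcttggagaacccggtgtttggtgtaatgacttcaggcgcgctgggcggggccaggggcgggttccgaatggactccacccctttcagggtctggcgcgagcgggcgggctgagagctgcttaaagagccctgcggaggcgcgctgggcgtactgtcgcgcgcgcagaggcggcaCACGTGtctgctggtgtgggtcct
Cacng5 has 2 listed starts, of which the upstream one is printed. The other window holds 1 E-box and 5 CG dinucleotides. Kcnc1 and Kcnc4 each hold 1 E-box, and Cacng5, Kcne4 and Kcnk5 each hold 2 in the windows printed. E-boxes occurred in 72.3% of all 32851 promoter windows of this length and in 70.2% of the 47 windows found for 31 of the 41 detected channel genes, so an E-box is common to most promoters of either kind. The Kcnc1 window holds 41 CG dinucleotides, that of Kcnk5 26, those of Kcnc4 and Cacng5 17 each and that of Kcne4 9, against a median of 7 over all windows and 10 over the windows of detected channel genes. The letters TTCAGCACC, the left part of the RE1 motif of the neuronal repressor REST, occurred in 0 of the 47 windows and in 0.371% of all windows on either strand, while GGACAGC, the right part of that motif, occurred in 12.8% of the 47 windows and in 6.56% of all. A match is a description of the letters and not a binding site.

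Most of the channel genes were below detection. Of 108 genes 41 were detected on at least 1 array, which is 38.0% against 55.3% of all 16593 genes, and 67 were on none. The array of APNL+AuEMF cells detected 29 of them, APNL 22, primary neurons 36 and fibroblasts 17. Among all genes the matching numbers were 8576, 8144, 8728 and 7847, a narrower spread. The 17 genes detected in fibroblasts were detected on all 4 arrays, as were 7512 of the 7847 among all genes.

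The genes detected on primary neurons alone numbered 11, or 10.2% of the channel genes against 2.70% of all genes. They were the pore genes Scn1a, Cacna1a, Kcna1, Kcnh1, Kcnma1 and Kcnu1 and the auxiliary genes Scn2b, Scn3b, Cacng4, Kcnab3 and Kcnip1. Their levels were low, from 6.40 to 7.58, and 7 of the 11 lay under the lowest level that the fibroblast array could detect. At a detection p under 0.05, 6 of the 11 were also detected on APNL+AuEMF or APNL, and 0 on fibroblasts. Only Kcne1, Kcnn4 and Kcns1 were detected on APNL+AuEMF alone, or 2.78% of the channel genes against 0.80% of all genes. Their levels there, 6.71, 6.67 and 6.96, lay under the lowest detected level of the fibroblast array. Their undetected values on fibroblasts were 6.59, 7.01 and 6.49. Kcnj8 was detected on APNL alone, and Kcnj15 on both of these arrays and no other, each 0.93% against 0.22% and 0.17% of all genes. Kcnc1, Kcnc4 and Kcnn1 were detected on every array except fibroblasts, and Cacng5, Kcnf1, Kcnh2, Kcnk10 and Kcnrg on APNL+AuEMF and primary neurons. The first group was 2.78% of the channel genes against 1.84% of all genes, and the second 4.63% against 2.18%.

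**Figure D1:**
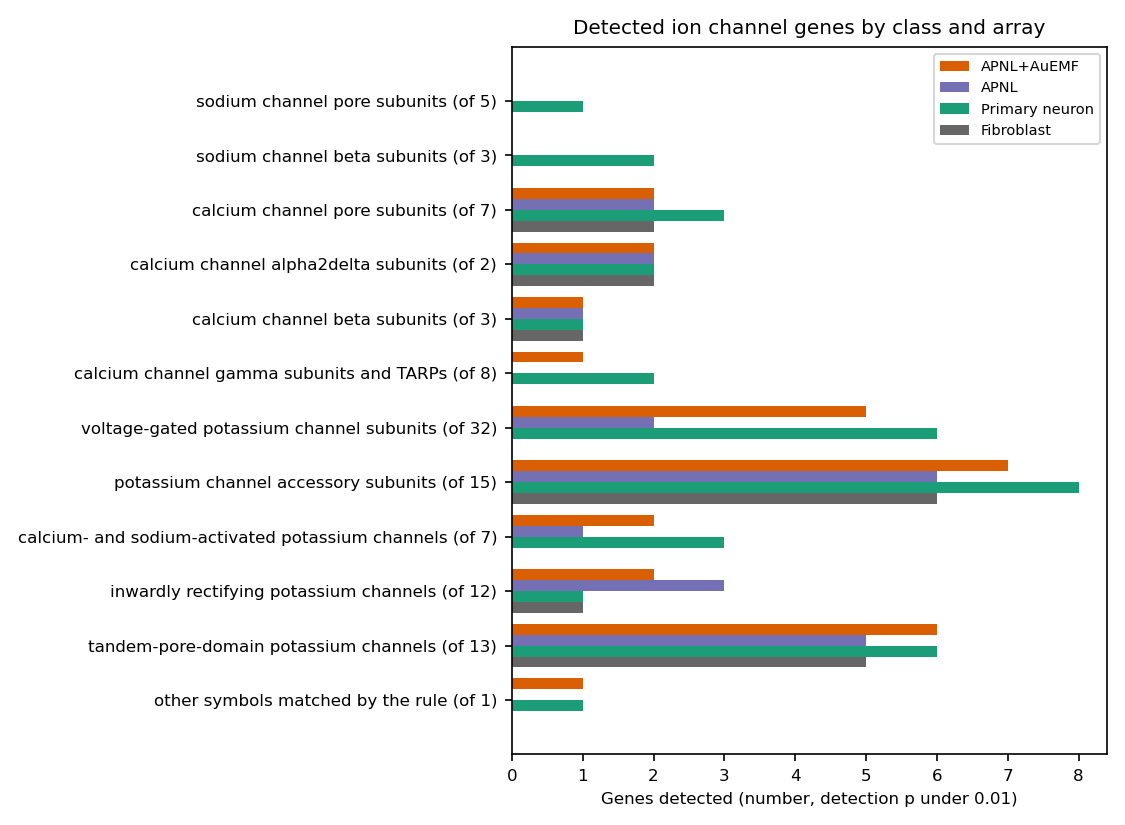
Horizontal bars give the number of channel genes detected on each array (detection p under 0.01), by subunit class, with the number of genes in the class in brackets; colours are the 4 arrays. Sodium channel genes were detected on the primary neuron array alone, and the 32 voltage-gated potassium channel genes gave 5, 2, 6 and 0 detected genes on APNL+AuEMF, APNL, primary neurons and fibroblasts.

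Sodium channel genes were mostly undetected. Of 5 measured pore subunit genes Scn1a was detected, on primary neurons alone. Scn8a, Scn7a, Scn10a and Scn11a were detected on no array, nor was the beta subunit gene Scn4b. Scn1a, the pore gene of a channel of inhibitory neurons, was not detected on APNL+AuEMF (6.10) or APNL (5.58), reached 7.19 on primary neurons and was not detected on fibroblasts (5.89). Scn3b, a beta subunit gene that tunes channel gating, was not detected on APNL+AuEMF (5.13) or APNL (4.80), reached 7.32 on primary neurons and was not detected on fibroblasts (4.76). Scn2b, another beta subunit gene, was not detected on APNL+AuEMF (5.98) or APNL (6.61), was at 6.81 on primary neurons and was not detected on fibroblasts (5.87). No measured sodium channel gene was detected on either APNL array at a detection p under 0.01. Under 0.05, Scn1a and Scn8a were detected on APNL+AuEMF and Scn2b on APNL. Since the neuronal levels were themselves near the detection limit, a lower level there could not be measured.

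Among the calcium channel pore genes 3 of the 7 measured were detected, and the 2 measured T-type genes went opposite ways in neurons. T-type channels open near the resting potential. Cacna1g had levels of 9.74 on APNL+AuEMF, 10.37 on APNL, 8.37 on primary neurons and 10.53 on fibroblasts, and so was lower on primary neurons than on fibroblasts by a log2 difference of -2.16, or 4.48-fold. Cacna1h, the other detected T-type gene, had levels of 10.30, 10.33, 11.23 and 10.17 in the same order. It was 2.08-fold higher on primary neurons than on fibroblasts. That call ended with the arrays scaled to a common median, at 0.82, and without background correction, at 0.99. On both APNL arrays Cacna1h stayed within 0.16 log2 of fibroblasts, and Cacna1g was within 0.79. Another detected Cacna1g probe, not used for the gene, gave -1.02 on APNL+AuEMF and -0.08 on APNL against fibroblasts. Cacna1a, the pore gene of the presynaptic P/Q-type channel, was detected on primary neurons alone, at 6.57. The L-type genes Cacna1c, Cacna1d and Cacna1f and the N-type gene Cacna1b were detected on no array.

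Both measured alpha2delta subunit genes were detected on all 4 arrays, and 1 of them differed. Cacna2d1, an alpha2delta subunit gene also found in muscle, had levels of 10.10 on APNL+AuEMF, 10.26 on APNL, 9.88 on primary neurons and 10.24 on fibroblasts, with no 2-fold difference between any pair. Cacna2d3, its relative in neurons, had levels of 8.10, 7.13, 8.95 and 7.14 in that order. It was 3.49-fold higher on primary neurons than on fibroblasts, and on APNL+AuEMF it fell just short of 2-fold, with a log2 difference of 0.98 against APNL and 0.96 against fibroblasts. Cacnb4, a beta subunit gene of brain, had levels of 7.78, 7.99, 8.66 and 7.94 in the same order and reached 2-fold in no comparison, while Cacnb1 and Cacnb2 were not detected.

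Of the 8 Cacng genes Cacng4 and Cacng5 were detected. Cacng5, a TARP gene, stood at 8.31 on APNL+AuEMF, was not detected on APNL (6.72), stood at 9.78 on primary neurons and was not detected on fibroblasts (5.13). The intensities behind these levels, before any correction, were 471 on APNL+AuEMF, 201 on APNL, 1183 on primary neurons and 126 on fibroblasts. It was therefore at least 2.59-fold higher on APNL+AuEMF than on APNL, at least 2.26-fold higher than on fibroblasts, and at least 6.30-fold higher on primary neurons than on fibroblasts. Without background correction the first 2 of these were log2 differences of 0.86 and 0.75, under 2-fold. All 3 folds are lower bounds, because an undetected level was replaced by the lowest detected level of its array where that was higher. Cacng4, another TARP gene, was detected on primary neurons alone, at 7.58. Cacng1, the gamma subunit gene of the skeletal muscle channel, was not detected on any array, fibroblasts included.

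Among voltage-gated potassium channels the Kcnc genes stood out. Of this class 7 of 32 subunit genes were detected, and 2 of these, Kcnc1 and Kcnc4, accounted for each 2-fold difference in the class. Kcnc channels open at strong depolarisation and close quickly, which lets neurons fire fast, and Kcnc1 is a marker gene of fast-spiking interneurons. Kcnc1 had levels of 9.67 on APNL+AuEMF, 8.13 on APNL and 10.60 on primary neurons, and was not detected at 5.53 on fibroblasts. Its uncorrected intensities were 1012, 345, 1899 and 145 in the same order. The 4 arrays thus stood well apart, with APNL+AuEMF between APNL and primary neurons.

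Kcnc1 was 2.91-fold higher on APNL+AuEMF than on APNL. Against fibroblasts it was at least 5.84-fold higher on APNL+AuEMF, at least 2.00-fold higher on APNL and at least 11.1-fold higher on primary neurons. The APNL value lay on the threshold, and without background correction it was a log2 difference of 0.63. On APNL it was 5.52-fold lower than on primary neurons. Kcnc4, which encodes a related channel subunit, had levels of 8.85 on APNL+AuEMF, 7.91 on APNL and 9.34 on primary neurons and was not detected at 5.48 on fibroblasts. It was at least 3.29-fold higher on APNL+AuEMF and at least 4.63-fold higher on primary neurons than on fibroblasts, while the bound for APNL, a log2 difference of 0.78, was under 2-fold. Between APNL+AuEMF and APNL its log2 difference was 0.94, also under 2-fold.

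The other 5 detected subunit genes of the class were dim. Kcnh2, the ERG channel gene of heart and neurons, was at 6.94 on APNL+AuEMF, not detected on APNL (6.79), at 7.32 on primary neurons and not detected on fibroblasts (6.77). Kcna1, Kcnf1, Kcnh1 and Kcns1 reached no level above 7.10 on any array. No measured gene of the Kcnd or Kcnq families, which carry the A-type and M-type currents of neurons, was detected. Of the Kcna family Kcna1 was the 1 gene detected.

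**Figure D2:**
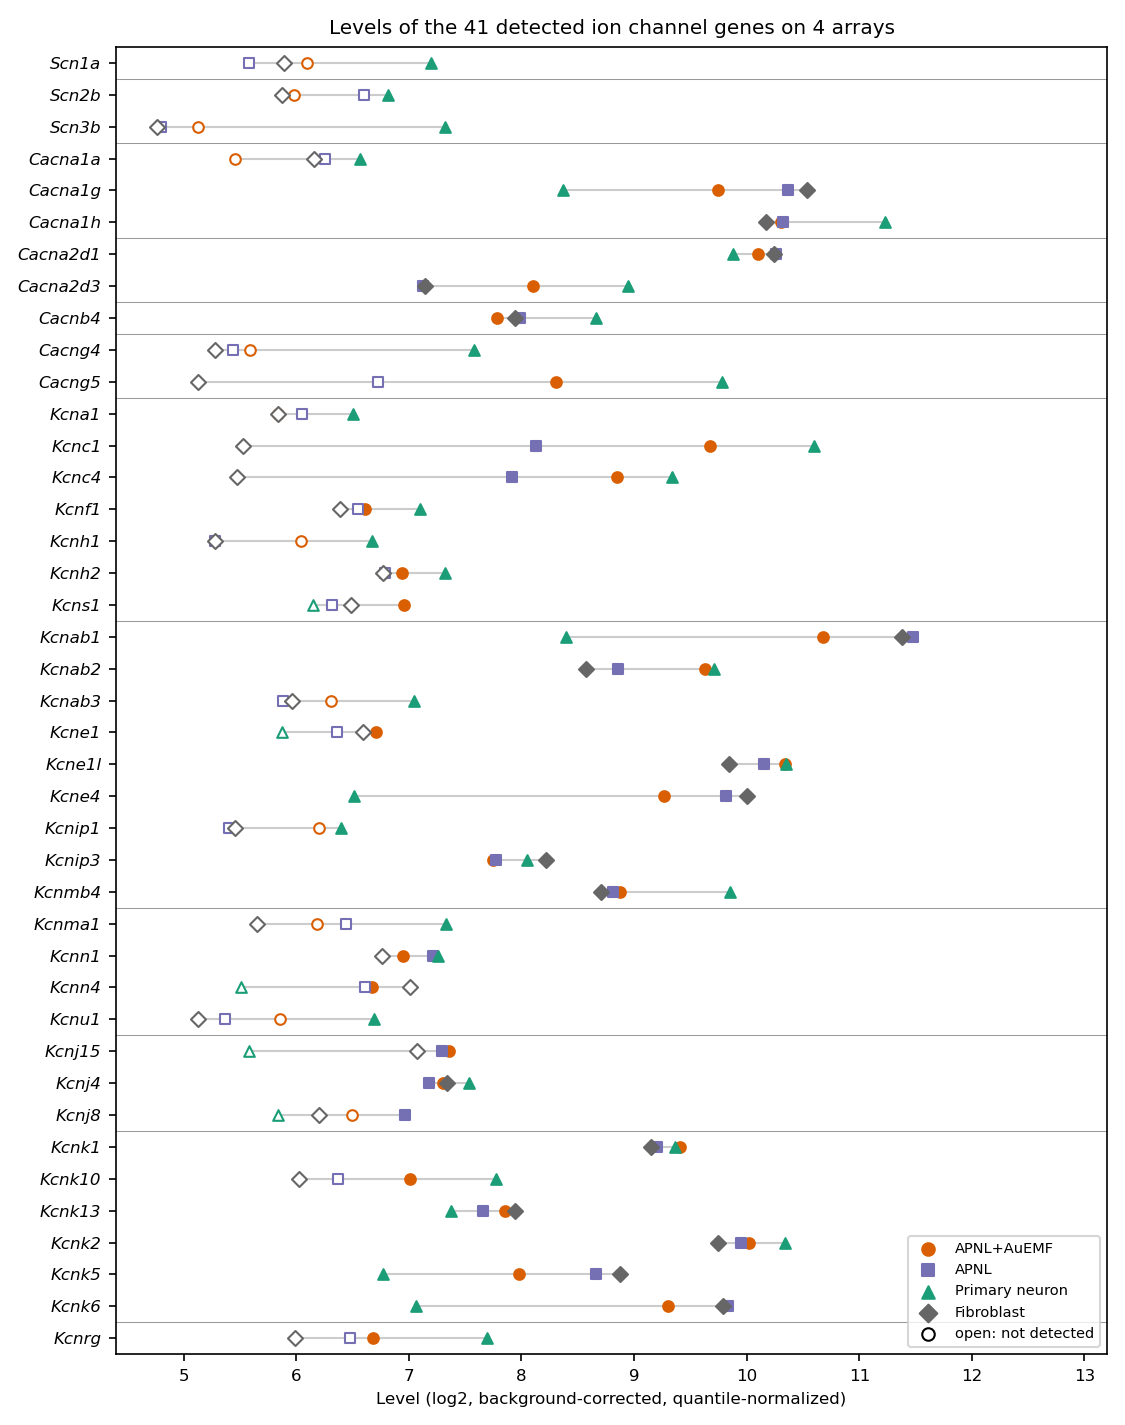
Each row is 1 of the 41 detected channel genes, ordered by class, and each symbol gives its log2 level on 1 array, filled where detected and open where not. Kcnc1, Kcnc4 and Cacng5 have primary neuron levels of 9.34 or more and open fibroblast symbols at 5.53 or less, while Cacna1g, Kcnab1, Kcne4, Kcnk5 and Kcnk6 have their lowest symbol on primary neurons.

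Among the accessory potassium channel subunits, 9 of 15 genes were detected, and the largest differences were of genes lower in neurons. Kcne4, a single-pass subunit that inhibits several Kv channels, had levels of 9.26 on APNL+AuEMF, 9.82 on APNL, 6.52 on primary neurons and 10.00 on fibroblasts. It was 11.2-fold lower on primary neurons than on fibroblasts, and 6.72-fold higher on APNL+AuEMF and 9.88-fold higher on APNL than on primary neurons. Kcnab1, a Kv beta subunit gene, had levels of 10.68, 11.47, 8.40 and 11.38 in the same order. It was 7.90-fold lower on primary neurons than on fibroblasts, while APNL+AuEMF differed from APNL by -0.79 and from fibroblasts by -0.70, short of 2-fold. The neuronal array alone stood apart for both genes.

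The related gene Kcnab2 went the other way from Kcnab1. Its levels were 9.63 on APNL+AuEMF, 8.86 on APNL, 9.71 on primary neurons and 8.57 on fibroblasts. It was 2.08-fold higher on APNL+AuEMF and 2.20-fold higher on primary neurons than on fibroblasts, so that APNL+AuEMF lay close to primary neurons, but without background correction the log2 differences were 0.87 and 0.94. Kcnmb4, the neuronal beta subunit gene of the BK channel, had levels of 8.88, 8.81, 9.85 and 8.71 in the same order and was 2.21-fold higher on primary neurons than on fibroblasts, or 0.97 on the log2 scale without background correction. Kcnma1, the pore gene with which it assembles, was detected on primary neurons alone, at 7.33. Kcne1l had levels of 10.34, 10.15, 10.35 and 9.84 in the same order, and Kcnip3, a calcium-binding protein gene, 7.75, 7.78, 8.05 and 8.22, with no 2-fold difference for either.

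Calcium-activated and inwardly rectifying channel genes were dim wherever they were detected. Kcnn1, the gene of a small-conductance channel, was at 6.95 on APNL+AuEMF, 7.22 on APNL and 7.26 on primary neurons and not detected at 6.77 on fibroblasts. Kcnu1, a channel gene known from sperm, was detected on primary neurons at 6.69 and on no other array. Of 12 Kcnj genes 3 were detected. Kcnj4 had levels of 7.31, 7.18, 7.53 and 7.34 on APNL+AuEMF, APNL, primary neurons and fibroblasts, so the 4 arrays lay close together. Kcnj15 was detected at 7.36 on APNL+AuEMF and 7.29 on APNL and not detected at 5.58 on primary neurons and 7.08 on fibroblasts. Kcnj8, the pore gene of a vascular ATP-sensitive channel, was not detected on APNL+AuEMF (6.49), was at 6.97 on APNL and was not detected on primary neurons (5.84) or fibroblasts (6.20).

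K2P channels, which carry background potassium current, were detected for 6, 5, 6 and 5 of 13 genes on APNL+AuEMF, APNL, primary neurons and fibroblasts, and 2 of them were lower in neurons. Kcnk6 had levels of 9.30 on APNL+AuEMF, 9.83 on APNL, 7.06 on primary neurons and 9.79 on fibroblasts. It was 6.63-fold lower on primary neurons than on fibroblasts. Kcnk5, an acid-sensitive channel gene, had levels of 7.98, 8.66, 6.77 and 8.88 in the same order, and was 4.31-fold lower on primary neurons than on fibroblasts. On APNL+AuEMF Kcnk5 differed from fibroblasts by -0.90, just under 2-fold, and Kcnk6 by -0.49. Kcnk2, a mechanosensitive channel gene, had levels of 10.02, 9.95, 10.34 and 9.75, and Kcnk1 9.41, 9.21, 9.36 and 9.15, in the same order, both with no 2-fold difference. Kcnrg, a regulator that suppresses Kv channel assembly and is itself no channel, was at 6.69 on APNL+AuEMF, not detected on APNL (6.48), at 7.70 on primary neurons and not detected on fibroblasts (5.99).

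Genes with several probes allow a look at how far the probes agree, and each gene's values come from whichever probe was brightest on average. The 2 detected Cacng5 probes gave measured differences between APNL+AuEMF and APNL of 1.58 and 1.91. For Kcnab1 the 2 detected probes gave -0.79 and -0.84, and for Kcnk6 -0.53 and -0.59, in the same comparison. These pairs moved together. Kcnc1 and Kcnc4, in contrast, have 2 probes each, and the other probe stayed undetected on all 4 arrays, between 5.04 and 5.10 for Kcnc1 and between 4.95 and 5.08 for Kcnc4. Each Kcnc difference therefore rests on 1 probe, and with the mean of both probes the log2 difference of Kcnc1 between APNL+AuEMF and APNL was 0.79, under 2-fold. With the mean of all probes, undetected ones included, no difference of Kcnc4 or Kcnk5 given above reached 2-fold, and primary neurons over fibroblasts gave 0.72 for Kcnc1 and 0.82 for Cacng5. On APNL+AuEMF, Kcnc1 was then at 0.24 over fibroblasts, and Cacng5 at 0.08 over APNL and 0.00 over fibroblasts. Kcnc1 on APNL over fibroblasts was at 0.00. Cacng5, Cacna1g, Kcnab1 and Kcnk6 also have a further probe, and Kcnk5 has 2 further probes, which were not detected on any array.

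**Figure D3:**
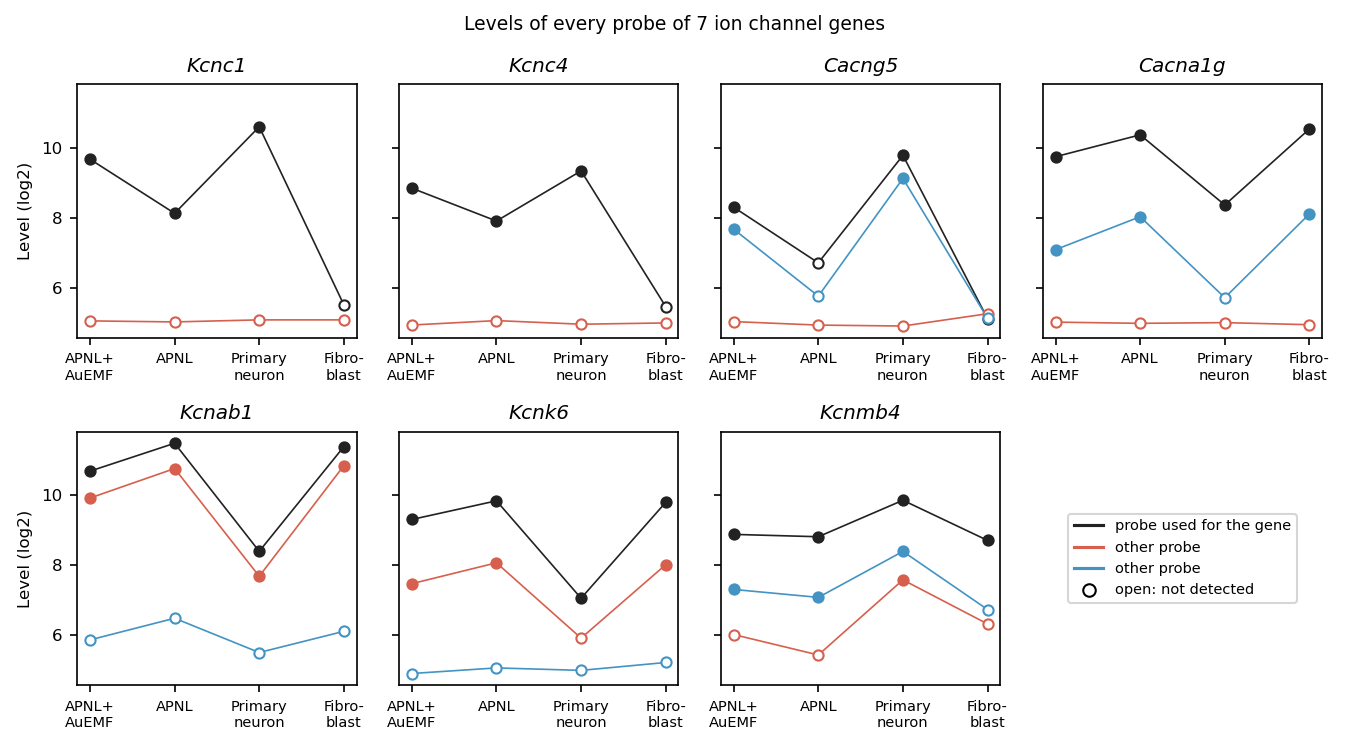
Each panel shows 1 gene and each line 1 probe, with the log2 level on the 4 arrays, filled where detected and open where not; black marks the probe used for the gene. The other probes detected for Cacng5 and Kcnmb4 are highest on primary neurons like the probe used, and those of Cacna1g, Kcnab1 and Kcnk6 lowest there, whereas Kcnc1 and Kcnc4 have 1 probe that moves and 1 near 5 on every array.

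Over the whole set, 13 genes reached 2-fold in any of the 6 comparisons, the 12 described with such a fold above and Kcnrg, which was 2.02-fold lower on APNL+AuEMF than on primary neurons, or -0.56 without background correction. A gene entered a comparison when detected on at least 1 of its arrays. A gene detected on 1 array of a pair alone tends to be higher there, which shifts the measured median toward that array. Between APNL+AuEMF and APNL, 8 genes were detected on the first array alone and 1 on the second alone. On APNL+AuEMF over APNL 2 of 30 genes compared were higher, Kcnc1 and Cacng5, against 3.14% of all genes compared, and 0 were lower, against 0.759%. The median measured difference was 0.07, beside -0.05 over all genes, and it was 0.00 with undetected levels at their bounds, beside -0.05. Cacna2d3 and Kcnc4 lay just under the threshold, and the other genes compared were further from it.

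On APNL+AuEMF over fibroblasts 4 of 29 genes were higher, Kcnc1, Kcnc4, Cacng5 and Kcnab2, against 5.22% of all genes, and 0 were lower, against 1.68%. The median measured difference was 0.17, beside -0.08 over all genes, and with bounds it was 0.00, beside -0.07. On APNL over fibroblasts 1 of 22 was higher, Kcnc1, against 1.55% of all genes, and 0 were lower, against 0.0%. Here the median was 0.08, beside -0.015 over all genes, and 0.05 with bounds, beside -0.01. Fibroblasts did not detect 12 of the 29 genes compared with APNL+AuEMF or 5 of the 22 compared with APNL. In either comparison 0 genes entered through fibroblasts alone. At these sizes 1 gene more or less changes each share by several percentage points.

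On primary neurons over fibroblasts 7 of 36 genes were higher, against 11.0% of all genes, and 5 were lower, against 14.9%. The median measured difference was 0.83, beside -0.10 over all genes, and it was 0.16 with undetected levels at their bounds, beside -0.07 over all genes. Of the 36 genes, 19 were detected on primary neurons and not on fibroblasts, and 0 the other way, so the filter itself favours a positive median. Among the 17 genes detected on both arrays 4 were higher and 5 lower. The higher genes were Kcnc1, Cacng5, Kcnc4, Cacna2d3, Kcnmb4, Kcnab2 and Cacna1h, and the lower ones Kcne4, Kcnab1, Kcnk6, Cacna1g and Kcnk5. The 3 comparisons with fibroblasts use the same fibroblast array, so their calls are not independent.

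Set against primary neurons, 5 of 40 genes were higher on APNL+AuEMF, against 7.42% of all genes, and 2 were lower, against 6.74%. The higher genes were Kcne4, Kcnab1, Kcnk6, Cacna1g and Kcnk5, the last at 0.70 without background correction, and the lower ones Cacng5, by 2.79-fold, and Kcnrg. With the mean of probes Cacna1g was at 0.92 and Cacng5 at -0.93 in this comparison, both under 2-fold. On APNL 5 of 38 were higher, against 12.7%, and 5 were lower, against 10.7%. Both comparisons use the same primary neuron array. The higher genes on APNL were again Kcne4, Kcnab1, Kcnk6, Cacna1g and Kcnk5, with Kcnab1 8.44-fold and Kcnk6 6.84-fold above primary neurons, and the lower ones were Cacng5, by at least 7.23-fold, Kcnc1, Cacna2d3, Kcnc4 and Kcnmb4. Without background correction Kcnmb4 was at -0.88, under 2-fold.

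**Figure D4:**
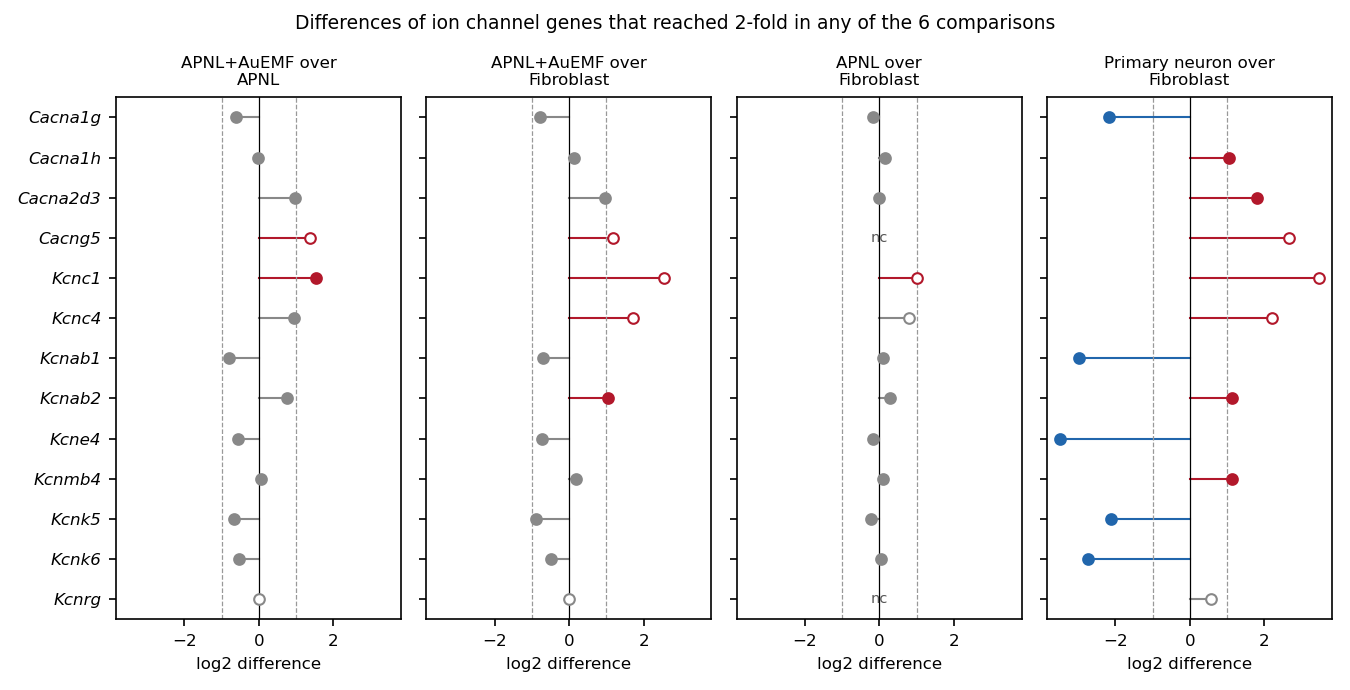
Log2 differences of the 13 genes that reached 2-fold in any of the 6 comparisons are drawn for 4 of them; red is higher, blue lower and grey neither, open points are lower bounds, dashed lines mark 2-fold and nc marks a gene not compared. Red points number 2, 4, 1 and 7 from left to right, and the 5 blue points are all in the comparison of primary neurons with fibroblasts.

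Markers of other cells moved with these groups. The summed linear level of the neuronal markers was 19707 on APNL+AuEMF, 9976 on APNL, 63920 on primary neurons and 5041 on fibroblasts. For the 14 skeletal muscle markers it was 14209, 26172, 1290 and 29623 in the same order, and for 11 fibroblast markers 168758, 150703, 75643 and 160540. Of 10 fibroblast markers compared between APNL+AuEMF and fibroblasts, Dcn alone reached 2-fold, at 15.27 and 14.21 log2. The median difference of these 10 was -0.21, so the higher sum on APNL+AuEMF does not describe the list. The 9 macrophage and microglia markers summed to 20916 on APNL+AuEMF, 2555 on APNL, 1345 on primary neurons and 2811 on fibroblasts, with Fcer1g and C1qa detected on APNL+AuEMF alone and Itgam and Ptprc detected on no array. The 7 astrocyte markers summed to 10845, 6029, 14272 and 3779, with Gfap and S100b detected on no array. These sums were carried by Slc1a3, with log2 levels of 13.22, 12.39, 13.58 and 11.74 in the same order. Smooth muscle and heart markers summed to 73036, 76812, 69214 and 76874, a sum carried by Acta2, which was at 16.05 on primary neurons and 16.06 on fibroblasts. The other 4 detected genes of that list were lower on primary neurons than on fibroblasts, Nppa by at least 30.7-fold, Myh11 by at least 12.9-fold and Myh6 by at least 8.03-fold. Oligodendrocyte lineage markers summed to 10204, 8794, 6430 and 7852, and their genes went both ways. Olig1 was 10.2-fold higher on APNL+AuEMF and 12.3-fold higher on primary neurons than on fibroblasts, whereas Pdgfra, also in the fibroblast list, was at 9.15 on primary neurons and 12.71 on fibroblasts. Endothelial markers, with Pecam1 and Cdh5 detected on no array, summed to 577, 760, 396 and 874. The part of these cell types in the channel differences was not tested.

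Partner proteins that cluster or modulate channels were measured from a separate list of 20 genes. On primary neurons over fibroblasts 8 of 13 compared genes were higher and 1 lower, against 11.0% and 14.9% of all genes, with a median difference of 1.08. Primary neurons detected 13 of the list and fibroblasts 5, so many genes entered through the neuron array alone. Nrcam, an adhesion protein gene of the axon initial segment, had levels of 10.59 on APNL+AuEMF, 9.56 on APNL, 12.03 on primary neurons and 8.71 on fibroblasts. Cntnap2, which gathers Kcna channels beside the node of Ranvier, was at 8.07 on APNL+AuEMF, not detected on APNL (6.70), at 10.30 on primary neurons and not detected on fibroblasts (5.01). Dpp6, an accessory protein gene of Kcnd channels, was at 8.74, 7.45 and 9.83 on APNL+AuEMF, APNL and primary neurons and not detected at 5.76 on fibroblasts. On APNL+AuEMF over APNL 3 of 11 partner genes were higher and 0 lower, against 3.14% and 0.759% of all genes. On APNL over fibroblasts 0 of 6 were either, against 1.55% higher and 0.0% lower. Sptbn1, a spectrin gene, was the 1 lower gene on primary neurons, with levels of 11.69, 12.19, 10.44 and 12.05 on APNL+AuEMF, APNL, primary neurons and fibroblasts.

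Excitation-contraction coupling genes, which link the muscle membrane to calcium release, gave the opposite picture. Of 17 genes 8 were detected. On primary neurons over fibroblasts 6 of 8 compared were lower and 0 higher, against 14.9% and 11.0% of all genes. On APNL+AuEMF over APNL 4 of 7 were lower and 0 higher, against 0.759% and 3.14%, with a median of -1.01. Without background correction 0 of all 8701 genes compared were lower by 2-fold or more there, so none of these 4 calls remained. Atp2a1, the calcium pump gene of fast muscle, was at 8.70 on APNL+AuEMF and 9.70 on APNL, not detected on primary neurons (5.64) and at 9.93 on fibroblasts. Casq2, a calcium store protein gene, was at 6.61 on APNL+AuEMF and 7.74 on APNL, not detected on primary neurons (5.01) and at 7.97 on fibroblasts. On APNL over fibroblasts 0 of 7 compared were higher or lower, against 1.55% and 0.0% of all genes.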

How the data were processed

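RNA from 4 samples was measured on 1 array each. Per the labels, biotinylated cRNA was made from 0.55 ug of total RNA, and the submitters' processing notes name GenomeStudio 2011.1. The authors deposited a linear intensity for each of 25697 probes, with no normalization between arrays, and beside it a detection p-value. The deposited log2 values equal quantile-normalized log2 intensity without background correction to within 5e-07. Background handling in the scanner software is not given in the sources used here.

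Here the intensity was processed with neqc of limma 3.58.1 in R 4.3.3 (normexp with controls inferred from detection p-values, offset 16, log2, quantile normalization), then with Python 3.11.15 and pandas 2.3.3. Probes with 1 gene symbol numbered 23978 and with none 1719. All 108 channel genes matched RefSeq by gene identifier. Of these 37 had several probes. A gene detected on only 1 of a pair of arrays was set against the lowest detected level of the other array, or against its own value there where that was greater, and a bound pointing the other way was set to 0. Higher and lower mean 2-fold or more. The steps were tested on simulated data.

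Genes and lists were chosen with earlier results of these data known. Named are channel genes at 2-fold in any comparison, the 3 with the highest detected level in each class, and up to 4 per list with the largest difference. Others were named after their values were seen, to account for detection.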

Additional observations from a re-analysis of the deposited data

How the results depend on the processing

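No paired analysis was possible because each group has 1 array. The counts of channel genes at 2-fold are small, and most changed by over 1.5 times under some alternative. Without background correction, and equally with the authors' deposited log2 values, 1 gene was higher on APNL+AuEMF over APNL, 2 on APNL+AuEMF over fibroblasts, 0 on APNL over fibroblasts and 4 on primary neurons over fibroblasts, and 1 was lower on APNL+AuEMF over primary neurons. Normexp without control information (offset 50) gave 1, 2 and 0 higher in the first 3 of these comparisons and 1 lower on APNL+AuEMF over primary neurons. Scaling to a common median gave 4 higher on APNL+AuEMF over APNL, and it moved the median of all genes on primary neurons over fibroblasts to -0.28 from -0.07. At a detection p under 0.05, 28 channel genes were detected on fibroblasts, 2 were higher on APNL and 12 on primary neurons over fibroblasts, and 6 on APNL+AuEMF and 8 on APNL were lower than on primary neurons. With genes limited to those detected on both arrays, the higher genes numbered 1 on APNL+AuEMF over APNL, 1 on APNL+AuEMF over fibroblasts, 0 on APNL over fibroblasts and 4 on primary neurons over fibroblasts. With no filter and no bounds, 1 was lower on APNL+AuEMF and 3 were higher on APNL over fibroblasts, 18 were higher and 8 lower on primary neurons over fibroblasts, 7 were lower on APNL+AuEMF and 9 higher and 13 lower on APNL over primary neurons. The mean of a gene's probes gave 0 higher on APNL+AuEMF over APNL, and over fibroblasts 1 on APNL+AuEMF, 0 on APNL and 4 on primary neurons; over primary neurons it gave 3 higher and 1 lower on APNL+AuEMF. This average takes in the undetected probes of Kcnc1, Kcnc4 and Cacng5. A 3-fold threshold gave 0 higher on APNL+AuEMF over APNL, and over fibroblasts 2 on APNL+AuEMF, 0 on APNL and 4 on primary neurons; over primary neurons it gave 3 higher and 0 lower on APNL+AuEMF and 3 lower on APNL. Apart from the fall in genes compared or the stricter threshold, the cause was not tested. Of 1164 differences of named genes recomputed this way 97 moved by over 1.5 times and 0 of those at 2-fold changed sign, and 48 of 48 medians moved by less. Signal over background limits the dim genes: most of the detected sodium and voltage-gated potassium channel genes lay near the detection limit.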

Other observations

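Other channels, pumps and exchangers of excitable cells were taken from 2 further lists. Of 16 measured channel genes outside the Scn, Cacn and Kcn families 8 were detected, and on primary neurons over fibroblasts 2 were higher, 2 lower and 4 neither. Over all genes 11.0% were higher and 14.9% lower in that comparison. Hcn2, a pacemaker channel gene, had levels of 8.77 on APNL+AuEMF, 8.22 on APNL, 9.49 on primary neurons and 7.33 on fibroblasts, and was 2.71-fold higher on APNL+AuEMF than on fibroblasts. Hcn3, its relative, was detected on primary neurons alone, at 8.53. Hvcn1, a voltage-gated proton channel gene known from phagocytes, had levels of 8.77, 8.56, 6.64 and 8.81 on APNL+AuEMF, APNL, primary neurons and fibroblasts, so the neurons stood apart as the low array. Tpcn2, a lysosomal channel gene, was at 9.66, 9.80, 8.50 and 9.82 in the same order.

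Of 12 measured pump and exchanger genes 8 were detected. On primary neurons over fibroblasts 3 of 7 compared were higher and 0 lower, against 11.0% and 14.9% of all genes. Atp1b2, a beta subunit gene of the sodium pump in glia and neurons, had levels of 8.91 on APNL+AuEMF, 8.54 on APNL, 9.48 on primary neurons and 7.62 on fibroblasts. Atp2b2, a calcium pump gene of neurons, was at 6.88 on APNL+AuEMF, not detected on APNL (5.52), at 8.95 on primary neurons and not detected on fibroblasts (4.95). On APNL+AuEMF over APNL none of the 7 other channel genes compared was higher or lower, nor any of the 8 pump and exchanger genes compared. Over all genes 3.14% were higher and 0.759% lower there.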
